A study of Homo sapiens with 21 samples.

Results

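The genes described here are those of cholesterol synthesis, of its control and of the handling of the sterol inside the cell. They were chosen by name as a list of 29 genes, and each was read at the array's probe set that carries its symbol alone and has the highest mean over the arrays of a cell line. Of the 29, 26 could be read this way, out of 19775 genes read in all. FDFT1 and NR1H2 were paired with no probe set in the annotation used here and the probe sets of CYP51A1 were listed with a further symbol, so these 3 genes were not analysed here.

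Gene expression was measured on 21 Affymetrix HGU133 Plus 2.0 arrays, in 7 groups of 3 biological replicates. A549, a lung adenocarcinoma cell line, gave 12 arrays: cells transfected with control siRNA or with APE1 siRNA, each without further treatment or after 4 h in 100 ng/ml trichostatin A (TSA), a histone deacetylase inhibitor that also raises the acetylation of APE1. APE1, the product of APEX1, is a DNA repair endonuclease that also acts in transcription. BEAS-2B, a line of normal bronchial epithelium, gave 9 arrays: cells that overexpressed wild type APE1 (WT), the K6R/K7R mutant (RR), whose changed lysines cannot be acetylated, or ND42, an APE1 that lacks the first 42 amino acids and with them those lysines. All cells were transfected with Lipofectamine and the labels give a harvest at 48 h. Of the siRNAs against APE1 that the study describes, 1 was used for the arrays, and the BEAS-2B cells kept their own APE1 and had no group with an empty vector, so RR and ND42 are compared with WT and not with unchanged cells.

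Cholesterol is built from acetyl-CoA through mevalonate, isoprenoid diphosphates, squalene and lanosterol, and its last steps run in the endoplasmic reticulum. When sterol there is scarce, SCAP carries the SREBP transcription factors, the products of SREBF1 and SREBF2, to the Golgi, where they are cleaved and freed to switch on most genes of the pathway. When sterol is plentiful, INSIG proteins hold SCAP back and the liver X receptors (LXR), which oxysterols activate, turn on genes of export and the ubiquitin ligase MYLIP, which degrades lipoprotein receptors. Lipoprotein cholesterol that is taken up leaves the lysosome through NPC1 and NPC2, and lung cells also use cholesterol in surfactant.

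In the A549 cells TSA was followed by higher levels of most of the pathway. With all arrays 15 of 26 members rose and 1 fell after control siRNA, where 11.9% of all genes rose and 8.94% fell. After APE1 siRNA 17 rose and 1 fell, where 15.3% of all genes rose and 9.77% fell. APE1 siRNA itself moved 4 members, the same ones without and with TSA: HMGCS1, STARD4 and MYLIP rose and EBP fell. Of all genes 1.85% rose and 3.09% fell with APE1 siRNA without TSA, and 1.91% and 3.37% with TSA. In BEAS-2B cells 12 members rose and 1 fell in RR against WT, and 11 rose in ND42 against WT, while no member was called between ND42 and RR. Of all genes 14.1% rose and 11.9% fell in RR, 10.3% and 7.50% in ND42, and 0 were called between ND42 and RR. A gene is called here at an adjusted p under 0.05 from a limma fit over all probe sets of the line, with a change of at least 0.32 on the log2 scale. All levels below are log2 values, so that a difference of 1 is a doubling.

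**Figure D1:**
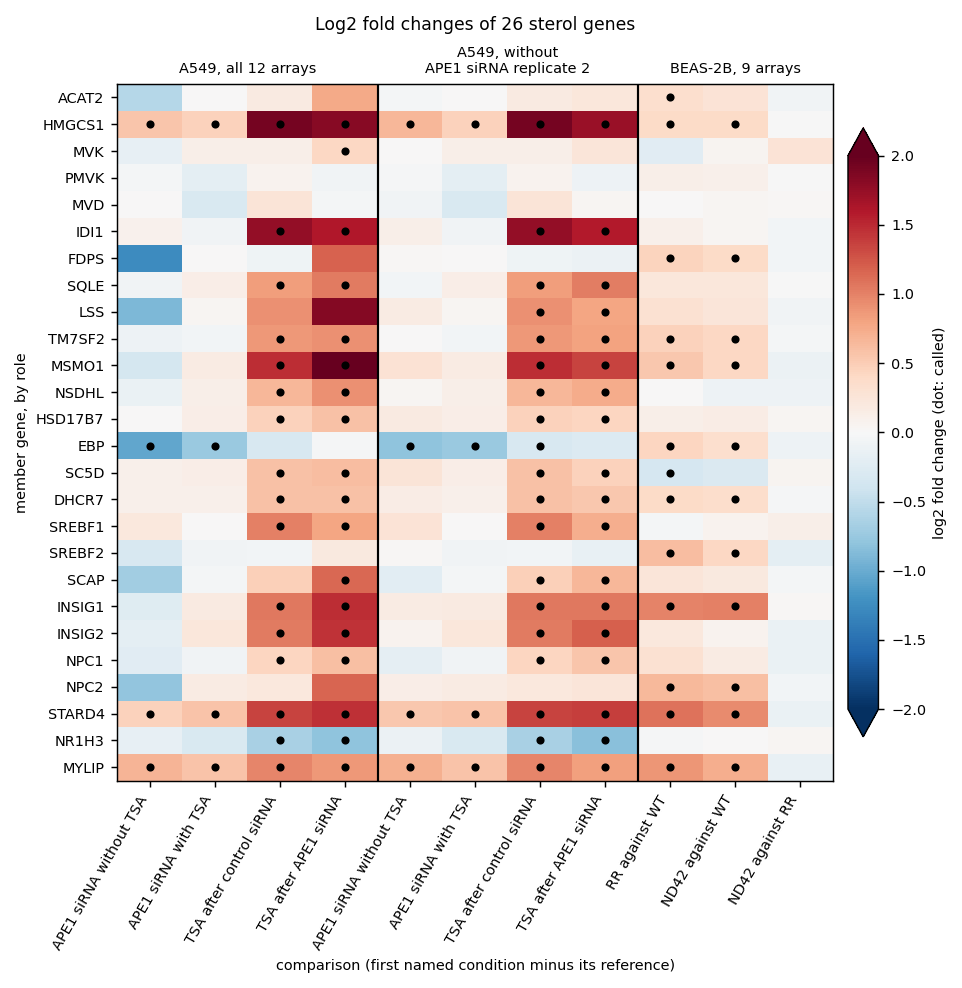
Log2 fold changes (colour) of the 26 members (rows, ordered by role) in each comparison of one group with another (columns, without the interaction of APE1 siRNA and TSA), with a dot where the gene was called. The columns on the left hold A549 cells with all 12 arrays, those in the middle A549 cells without APE1 siRNA replicate 2, and those on the right BEAS-2B cells. HMGCS1, STARD4 and MYLIP carry dots in every column except ND42 against RR, and FDPS, LSS and NPC2 are blue for APE1 siRNA on the left and near white in the middle.

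One array stood apart from its group. APE1 siRNA replicate 2 correlated with the other A549 arrays at r = 0.876 to 0.896 over all probe sets, against 0.994 to 0.999 within groups of the other arrays, and 8186 probe sets (15.0%) lay over 1 log2 unit from the mean of its fellow replicates 1 and 3. Among the members 8 of 26 lay over 1 log2 unit lower on this array and 0 higher. FDPS, the farnesyl diphosphate synthase, read 11.19, 7.36 and 11.24 on the 3 arrays. LSS, the lanosterol synthase, read 9.93, 6.81 and 10.04. NPC2, the soluble sterol carrier of the lysosome, read 12.52, 9.74 and 12.46. MSMO1, ACAT2, SCAP, INSIG1 and SREBF2 were lower by 1.91, 1.60, 1.49, 1.23 and 1.01 log2 units on replicate 2 in the plot of its deviations, while the largest difference between replicates 1 and 3 in any member was 0.17. The difference between the 3' and 5' control probe sets of ACTB, a sign of shortened RNA, was 6.08 on this array and 0.58 and 0.43 on its fellows, and its log2 values over all probe sets had an SD of 1.66 against 2.07 and 2.09 there. Most log2 fold changes and counts of members that use this array are given with and without replicate 2, and the others name the set of arrays used.

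**Figure D2:**
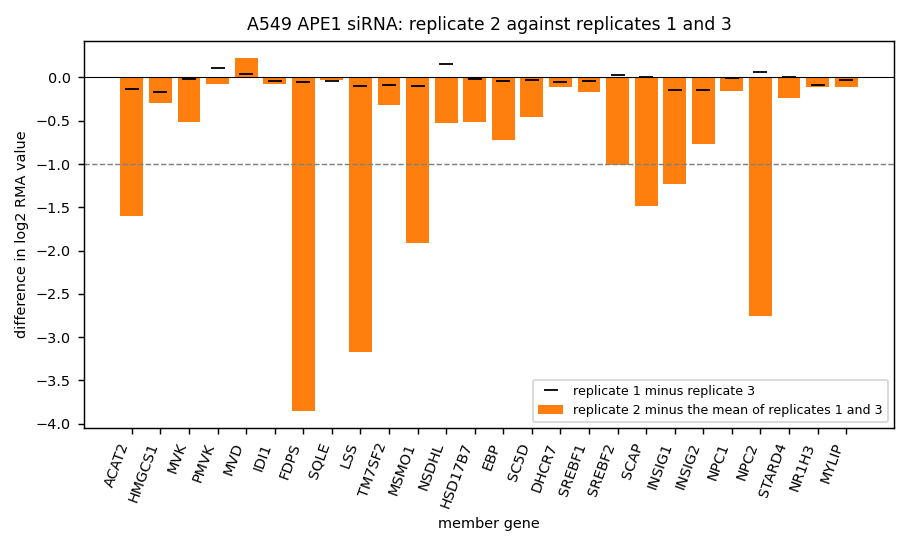
For each of the 26 members (horizontal axis), the log2 RMA value of A549 APE1 siRNA replicate 2 minus the mean of replicates 1 and 3 (bars) and the difference of replicates 1 and 3 (dashes), with a dashed line at -1. Bars reach below the line for 8 members, while the dashes stay within 0.17 of 0.

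The other measures of the arrays that move with the groups were these. APEX1 averaged 12.19 on the control siRNA arrays and 9.55 on the APE1 siRNA arrays (10.05 and 10.18 on replicates 1 and 3), 11.80 and 9.54 with TSA, and 10.65, 10.66 and 10.48 in WT, RR and ND42. The ACTB difference moved with the A549 groups: it ran from 0.13 to 0.35 after control siRNA, from 0.54 to 0.87 with TSA and from 0.90 to 1.05 after APE1 siRNA with TSA. The same difference for GAPDH was 0.03 to 0.16 after control siRNA and 0.04 to 0.12 with TSA, but 0.57 and 0.60 on APE1 siRNA replicates 1 and 3, 2.06 on replicate 2 and 0.47 to 0.71 after APE1 siRNA with TSA. In BEAS-2B cells the ACTB difference ran from 0.24 to 0.38 and that of GAPDH from -0.06 to 0.10. The part of these differences in the results below was not tested. The control RNAs added at the labelling and hybridization steps differed between the TSA and the untreated A549 arrays, with medians over their probe sets of -1.53 for bioB, 0.88 for bioC and -1.61 for dap after control siRNA, so an effect of TSA and of how the arrays were run cannot be told apart. With TSA after APE1 siRNA the medians were -1.56 for bioB, -1.65 for dap and 2.17 for cre. Between APE1 siRNA and control siRNA without TSA, with replicate 2 among the arrays, the median for cre was -1.77. Those of the other control RNAs lay between -0.17 and 0.16 there. Between APE1 siRNA and control siRNA with TSA all the medians lay between -0.30 and 0.05, and between the mutants and WT between -0.17 and 0.30.

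Markers of cell types were read in the same way, against array medians near 6.4 in A549 and 5.7 in BEAS-2B cells. Of the 6 epithelial markers, KRT7, KRT8 and KRT18 averaged 10.81, 8.50 and 11.16 in A549 and 9.39, 10.34 and 11.56 in BEAS-2B cells, while EPCAM, CDH1 and KRT19 averaged 4.78, 5.40 and 5.48 in A549 and 5.51, 6.28 and 5.10 in BEAS-2B cells. Of the 4 measured markers of alveolar type 2 cells, SFTPB, SFTPC and NAPSA averaged 7.53, 7.78 and 7.41 in A549 and 6.72, 7.37 and 6.09 in BEAS-2B cells, and SFTPD lay below the array medians at 6.02 and 5.43. Some markers moved with the BEAS-2B groups. The epithelial KRT7 was called lower in RR and ND42 (-1.32 and -1.43) and CDH1 higher (1.16 and 1.07). Among the alveolar type 2 markers SFTPC was called lower in RR (-0.37). Of the 5 fibroblast markers, which averaged 5.90 to 6.02 per array in WT, 6.14 to 6.29 in RR and 6.15 to 6.21 in ND42 with no overlap between WT and either mutant, PDGFRB (0.93 and 0.83) and COL1A2 (0.43 and 0.48) were called higher in both and DCN lower in RR (-0.35). Of the 4 endothelial markers, which averaged 5.50 to 5.55 in WT, 5.32 to 5.37 in RR and 5.35 to 5.48 in ND42, PECAM1 was called lower in both (-0.69 and -0.35). Of the 4 measured leukocyte markers, which averaged 5.51 to 5.66 in WT, 5.58 to 5.72 in RR and 5.73 to 5.78 in ND42, CD14 was called higher in both (0.37 and 0.51) and CD3E lower in RR (-0.35), while PTPRC, which defines the class, averaged 4.28. In A549 cells the leukocyte markers averaged 5.86 to 6.28 per array, with PTPRC at 4.65, and KRT19 with TSA after APE1 siRNA (-0.55) was the only marker called with all arrays. Without replicate 2 KRT18 was called higher after APE1 siRNA without and with TSA (0.66 and 0.48) and KRT8 without TSA (0.37), and KRT7 (-0.90 and -0.91) and KRT18 (-0.43 and -0.61) were called lower with TSA after control and APE1 siRNA. The part of these markers in the results below was not tested. These are bulk cultures, in which fewer cells of a kind and less RNA per cell cannot be told apart.

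The promoters of genes that SREBP switches on carry a sterol response element and often a neighbouring CCAAT box, the site of the factor NF-Y. RefSeq promoter sequence of GRCh38.p14 was at hand for 26 of the 29 listed genes (none for ACAT2, FDFT1 and SQLE), and the 250 bases before each start site were searched on both strands. The sterol response element TCACNCCAC was found in 1 of the 26 genes, SREBF2, against 1.09% of the 27305 genes with such a window. Its shorter core CACNCCA, which lies within it, was found in 11 of 26 against 17.4%. The letters CCAAT were found in 19 of 26 against 37.0% of genes, and GGGCGG, the GC box, in 25 of 26 against 46.2%. Matches of the core and of CCAAT shared bases in NR1H3, and a match is a run of letters and not a measured binding site.

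Bases 210 to 51 before the start site are shown for 6 members whose changes are described below. HMGCS1 has 2 start sites in this sequence, and the site with more matches is shown. The 250 bases before its other site held no CCAAT and no CACNCCA. HMGCS1, STARD4, MSMO1 and INSIG1 were called in both cell lines, EBP moved one way in A549 and the other way in BEAS-2B cells, and SREBF2 holds the full element. Capitals mark CCAAT and CACNCCA on either strand, so that ATTGG is a CCAAT of the opposite strand, and each stretch reads from 5′ to 3′ on the strand of its gene.
HMGCS1, chr5:43313463-43313622, minus strand: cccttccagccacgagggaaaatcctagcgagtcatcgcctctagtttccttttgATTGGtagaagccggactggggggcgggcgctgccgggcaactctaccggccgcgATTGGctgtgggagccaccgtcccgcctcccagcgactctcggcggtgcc
MSMO1, chr4:165327459-165327618, plus strand: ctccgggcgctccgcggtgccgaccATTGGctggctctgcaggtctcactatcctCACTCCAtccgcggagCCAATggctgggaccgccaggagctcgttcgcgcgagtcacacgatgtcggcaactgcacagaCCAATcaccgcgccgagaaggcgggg
EBP, chrX:48521598-48521757, plus strand: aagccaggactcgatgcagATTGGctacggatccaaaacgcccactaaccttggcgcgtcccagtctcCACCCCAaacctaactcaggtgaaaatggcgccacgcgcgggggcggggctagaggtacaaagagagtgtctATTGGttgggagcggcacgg
INSIG1, chr7:155297668-155297827, plus strand: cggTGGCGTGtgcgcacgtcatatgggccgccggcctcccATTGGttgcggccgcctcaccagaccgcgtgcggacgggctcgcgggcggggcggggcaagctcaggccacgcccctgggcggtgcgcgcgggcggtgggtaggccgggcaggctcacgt
SREBF2, chr22:41832895-41833054, plus strand: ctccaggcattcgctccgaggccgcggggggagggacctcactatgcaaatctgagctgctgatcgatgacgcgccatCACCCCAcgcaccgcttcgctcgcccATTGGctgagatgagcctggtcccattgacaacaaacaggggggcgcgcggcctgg
STARD4, chr5:111512586-111512745, minus strand: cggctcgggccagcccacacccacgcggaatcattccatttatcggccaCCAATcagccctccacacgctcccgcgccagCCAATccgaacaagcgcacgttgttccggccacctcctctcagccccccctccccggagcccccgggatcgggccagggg
In this stretch MSMO1 held 3 CCAAT matches and 1 core, HMGCS1 and STARD4 held 2 CCAAT matches and 0 cores, EBP held 2 and 1, and INSIG1 and SREBF2 held 1 of each.

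The first comparison asked what loss of APE1 does in A549 cells. With all arrays 3 of 26 members were called higher and 1 lower, where 1.85% of all genes were called higher and 3.09% lower. The median member differed by -0.15, against -0.03 over all genes. Without replicate 2 the same 4 members were called, beside 4.86% of all genes higher and 4.35% lower, and the median member differed by 0.05. Of the 7 measured enzymes of the mevalonate and isoprenoid steps HMGCS1 alone was called, of the 7 from lanosterol to cholesterol EBP alone, of the 3 sterol transport genes STARD4 and of the 2 genes of oxysterol signalling MYLIP. Neither enzyme from squalene to lanosterol and none of the 5 SREBP factors and their controllers was called.

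HMGCS1 (probe set 221750_at) encodes the cytosolic HMG-CoA synthase, which makes the substrate from which mevalonate is formed. It read 7.82, 7.95 and 7.76 on the control siRNA arrays and 8.42, 8.21 and 8.58 on the APE1 siRNA arrays. The groups did not overlap, and replicate 2 was the lowest of the APE1 siRNA arrays. The log2 fold change was 0.56 ± 0.11 (SE, limma adjusted p = 0.0143) and 0.66 ± 0.09 without replicate 2 (limma adjusted p = 0.000417). The call ended when control siRNA replicate 1 or 3 was left out, with limma adjusted p = 0.0627 and 0.0719. The gene's other probe set, 205822_s_at, is dimmer, with a mean of 6.34, and was not called here (0.02, and 0.16 without replicate 2) nor with TSA (-0.25).

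STARD4, a cytosolic carrier that moves sterol between membranes, read 8.10, 8.10 and 8.19 on the control siRNA arrays and 8.67, 8.43 and 8.66 on the APE1 siRNA arrays. All 3 APE1 siRNA arrays were higher, by 0.46 ± 0.07 in the mean (SE, limma adjusted p = 0.00551) and by 0.54 without replicate 2. MYLIP read 8.10, 8.01 and 7.72 on the control siRNA arrays and 8.64, 8.55 and 8.67 on the APE1 siRNA arrays. Its log2 fold change was 0.68 ± 0.09 (SE, limma adjusted p = 0.00254) and 0.71 without replicate 2, and of its 5 other probe sets 1 was called, 228098_s_at (0.71, and 0.67 without replicate 2). The other 4 were not called in either set of arrays, at 0.30 for 220319_s_at, 0.15 for 223129_x_at, 0.12 for 227707_at and 0.15 for 228097_at with all arrays.

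EBP, the sterol isomerase of the late pathway, read 10.64, 10.62 and 10.76 on the control siRNA arrays and 9.85, 9.15 and 9.90 on the APE1 siRNA arrays. It fell by 1.04 ± 0.17 log2 units (SE, limma adjusted p = 0.00619), with the lowest value on replicate 2, and by 0.80 without that array (limma adjusted p = 2.39e-05). Its probe set 202735_at was not called with all arrays (-1.85, limma adjusted p = 0.303) and was lower by 0.64 without replicate 2 (limma adjusted p = 0.000416), while the dimmer 213789_at and 231320_at were not called either way. With only the 6 arrays of these groups in the fit none of the 4 members was called, with limma adjusted p from 0.0814 for MYLIP to 0.133 for HMGCS1.

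FDPS, LSS and NPC2, which beside EBP had the lowest log2 fold changes after APE1 siRNA with all arrays, were low on replicate 2 alone. FDPS differed by -1.25 with all arrays (95% interval -3.07 to 0.56) and by 0.03 without replicate 2 (-0.15 to 0.20). LSS differed by -0.89 (-2.39 to 0.60) and by 0.16 (0.02 to 0.31), and NPC2 by -0.79 (-2.08 to 0.51) and by 0.13 (-0.01 to 0.27). None of the 3 was called in either set of arrays.

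After TSA the same comparison gave the same 4 members, 3 of 26 higher and 1 lower, where 1.91% of all genes were called higher and 3.37% lower with all arrays, and 4.19% and 6.42% without replicate 2. It uses other arrays of both groups, none of which stood apart. HMGCS1 read 9.72, 9.80 and 9.76 after control siRNA with TSA and 10.07, 10.37 and 10.23 after APE1 siRNA with TSA, a log2 fold change of 0.46 ± 0.11 (SE, limma adjusted p = 0.0352). STARD4 read 9.52, 9.47 and 9.45 against 10.03, 10.03 and 10.11, which is 0.58 higher. MYLIP read 8.91, 8.98 and 8.87 against 9.51, 9.53 and 9.40, which is 0.56 higher. EBP read 10.37, 10.41 and 10.28 against 9.63, 9.48 and 9.70, a fall by 0.75 ± 0.17 log2 units (SE, limma adjusted p = 0.0319). Of the other probe sets, 2 of 5 for MYLIP, 0 of 1 for HMGCS1 and 0 of 3 for EBP were called with all arrays. In none of these 4 genes did the groups overlap, as the plot of values by array in A549 cells shows.

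In the fit, replicate 2 entered this comparison only through the shared estimate of the spread. The deposited values had been normalized before, and leaving out an array does not undo any part it had in that step. Without replicate 2 the limma adjusted p was 0.00182 for HMGCS1 and 9.26e-06 for EBP. With it, the calls of HMGCS1 and of EBP each ended in 9 of 12 fits that left out 1 array, up to limma adjusted p = 0.135 and 0.123, while STARD4 and MYLIP were called in all 12. The APE1 siRNA effect on the members did not pass the test of a difference between untreated and TSA-treated cells: 0 of 26 members were called in that interaction, where 0.121% of all genes were called, and 1 of 26 had an unadjusted p under 0.05. Without replicate 2 the counts were again 0 and 1, where 1.81% of all genes were called, and the 95% intervals of the 26 differences all lay between -0.49 and 0.45.

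**Figure D3:**
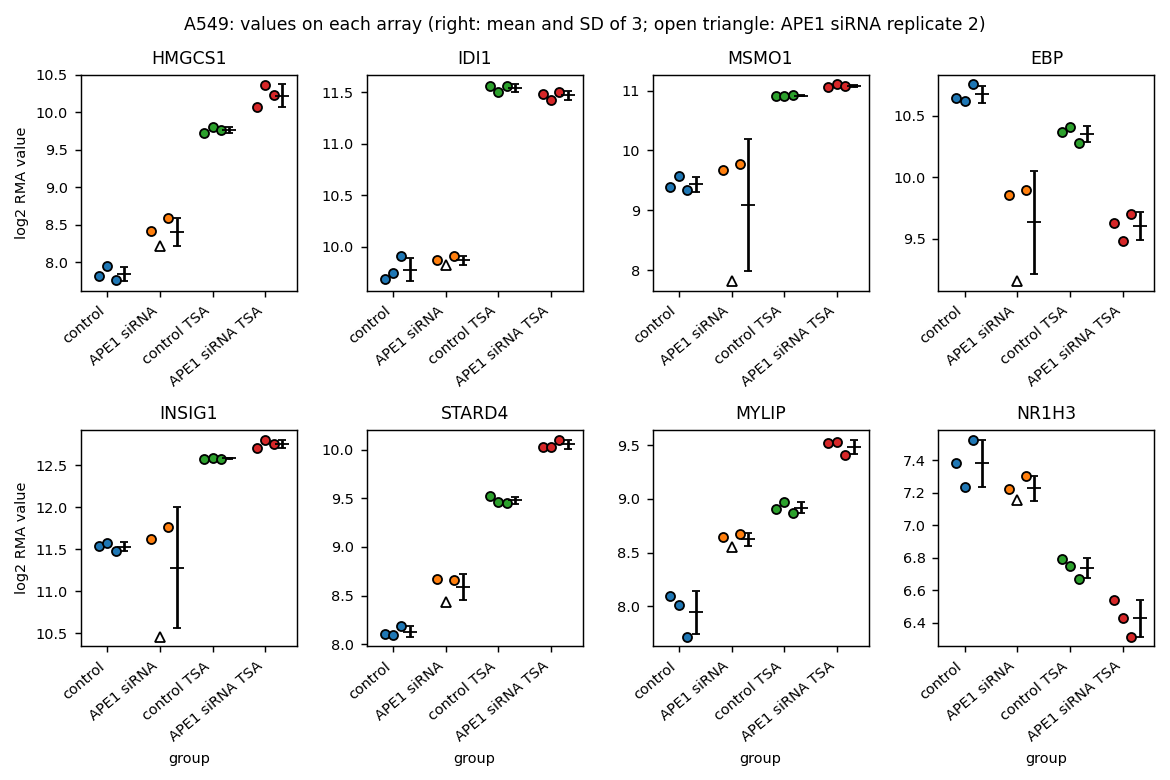
Log2 RMA values (vertical axis) of 8 members on each A549 array by group (horizontal axis), with the mean and SD of the 3 arrays to the right of each group and APE1 siRNA replicate 2 as an open triangle. HMGCS1, STARD4 and MYLIP lie higher after APE1 siRNA than after control siRNA at both levels of TSA and higher still with TSA, EBP lies lower after APE1 siRNA, and NR1H3 lies lower with TSA.

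The TSA comparisons showed the widest change. After control siRNA 15 of 26 members were called higher and 1 lower, where 11.9% of all genes were called higher and 8.94% lower, and the median member differed by 0.59 against -0.04 over all genes. After APE1 siRNA 17 of 26 members were called higher and 1 lower, where 15.3% of all genes were called higher and 9.77% lower, with a median of 0.89 against 0.01. Without replicate 2 these counts were 17 and 2 after control siRNA, beside 16.4% and 14.4% of all genes, and 17 and 1 after APE1 siRNA, beside 17.2% and 16.0%, and the medians were 0.59 and 0.60. All 15 members called higher after control siRNA with all arrays were also called higher after APE1 siRNA. Leaving out each of the 12 arrays in turn, 13 of the 16 calls after control siRNA and 16 of the 18 after APE1 siRNA held in every fit, and those of MSMO1, INSIG1 and HSD17B7 after control siRNA and of MVK and SCAP after APE1 siRNA did not. The other probe sets of the called members often did not share the call: with all arrays 6 of 21 did after control siRNA, with 1 called the other way, and 9 of 24 after APE1 siRNA.

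Among the mevalonate and isoprenoid steps HMGCS1 and IDI1 rose after either siRNA. HMGCS1 went from 7.76 to 7.95 on the control siRNA arrays to 9.72 to 9.80 with TSA, a log2 fold change of 1.92 ± 0.11 (SE, limma adjusted p = 1.11e-06), and rose by 1.82 after APE1 siRNA, or 1.72 without replicate 2. IDI1, the isomerase that makes dimethylallyl diphosphate, read 9.68, 9.74 and 9.90 without and 11.56, 11.50 and 11.56 with TSA. Its log2 fold change was 1.76 ± 0.07 (SE, limma adjusted p = 1.25e-07) after control siRNA and 1.60 after APE1 siRNA. Both of its bright probe sets rose, by 1.76 and 1.65, but they carry the suffix _x_at of sets that can match other genes, and a dim set, 233014_at with a mean of 5.68, was called lower (-0.52). ACAT2, PMVK, MVD and FDPS were not called in either TSA comparison with all arrays or without replicate 2. Without that array their differences lay between -0.11 and 0.26. With all arrays ACAT2 averaged 8.19 after APE1 siRNA and 8.94 after APE1 siRNA with TSA, and FDPS 9.93 and 11.10. MVK, the mevalonate kinase, was called after APE1 siRNA (0.41, limma adjusted p = 0.033) but not without replicate 2 (0.23), where the change lay under the minimum fold. Its call also ended without any 1 of the APE1 siRNA TSA arrays (limma adjusted p = 0.0676 to 0.0868).

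Both measured enzymes between squalene and lanosterol were higher with TSA once replicate 2 was left out. SQLE, the squalene epoxidase, read 9.31, 9.41 and 9.45 without and 10.29, 10.20 and 10.18 with TSA, and rose by 0.83 ± 0.06 (SE, limma adjusted p = 6.49e-06) after control siRNA and by 1.03 after APE1 siRNA. LSS read 9.78, 9.89 and 9.79 without and 10.75, 10.75 and 10.69 with TSA after control siRNA, with no overlap. Its difference of 0.91 was not called with all arrays and was called without replicate 2 (limma adjusted p = 5.72e-08). After APE1 siRNA its difference was 1.84 with all arrays, not called, and 0.78 without replicate 2, called. The array left out belongs to neither group of the comparison after control siRNA. In the fit it acts there only on the estimate of the spread, and its part in the earlier normalization was not tested.

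Of the 7 enzymes from lanosterol to cholesterol 6 rose with TSA after either siRNA. MSMO1, an oxidase that acts in the removal of methyl groups from the sterol ring, read 9.38, 9.57 and 9.34 without and 10.91, 10.91 and 10.93 with TSA after control siRNA. The log2 fold change was 1.48 ± 0.41 with all arrays (SE, limma adjusted p = 0.0263) and 1.48 ± 0.07 without replicate 2 (limma adjusted p = 2.41e-09), and after APE1 siRNA it was 1.99 and 1.36. With all other arrays in the fit, leaving out any of the 3 control siRNA or the 3 control siRNA TSA arrays ended its call after control siRNA, at limma adjusted p up to 0.0802. TM7SF2, a sterol reductase, rose by 0.87 and 0.91 after control and APE1 siRNA. NSDHL and HSD17B7, which act with MSMO1 in demethylation, rose by 0.66 and 0.91 and by 0.46 and 0.59, where HSD17B7 was read at an _x_at probe set and lost its call after control siRNA without control siRNA replicate 2 or 3 or control siRNA TSA replicate 1 or 2 (limma adjusted p = 0.0615 to 0.0728). SC5D, the desaturase that acts after EBP, rose by 0.59 and 0.61, and DHCR7, the reductase of the last step in one branch, by 0.59 and 0.58. With all arrays the other probe set of DHCR7, with a mean of 8.87, was not called after control or APE1 siRNA (0.04 and -0.04). Those of NSDHL (mean 8.32, 0.20 and 0.79) and SC5D (mean 5.01, -0.12 and -0.13) were not called either.

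EBP was the member of this branch that did not rise. Its values with TSA lay below those without TSA after control siRNA, by 0.32 log2 units, a difference that was called without replicate 2 (limma adjusted p = 0.00249) and not with it. After APE1 siRNA the difference was -0.03 with all arrays and -0.27 without replicate 2, not called in either. Its other probe sets differed in direction after control siRNA, with 213789_at called higher (0.62), 231320_at lower (-0.43) and 202735_at not called (0.08).

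The genes of SREBP control were higher with TSA except SREBF2. SREBF1 read 8.81, 8.86 and 9.03 without and 9.92, 9.93 and 9.85 with TSA, and rose by 1.00 ± 0.08 (SE, limma adjusted p = 8.71e-06) after control siRNA and by 0.79 after APE1 siRNA. The difference between these effects of TSA on SREBF1, -0.27 without replicate 2, had an unadjusted p of 0.0191 and did not pass the adjustment (limma adjusted p = 0.266). With all arrays the other probe set of SREBF1, with a mean of 8.24, was not called after control or APE1 siRNA (0.04 and 0.34). INSIG1 read 11.54, 11.58 and 11.48 without and 12.58, 12.59 and 12.58 with TSA after control siRNA. It rose by 1.05 after control siRNA and by 1.47 after APE1 siRNA, and by 1.05 and 1.06 without replicate 2. With replicate 2 in the fit, its call after control siRNA ended without control siRNA replicate 1 or 3 or control siRNA TSA replicate 2 or 3 (limma adjusted p = 0.0526 to 0.0591). INSIG2, its relative, rose by 1.04 and 1.45, or 1.04 and 1.19 without that array. SCAP was called after APE1 siRNA with all arrays (1.15, but limma adjusted p = 0.0514 to 0.0694 without any 1 of the APE1 siRNA TSA arrays) and after both siRNAs without replicate 2 (0.48 and 0.66). SREBF2 was read at 242748_at in A549 cells and differed by -0.05 and 0.19, or -0.05 and -0.14 without replicate 2, not called. None of its 3 probe sets was called in either TSA comparison with all arrays, and without replicate 2 only 201248_s_at was, lower after APE1 siRNA (-0.36).

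Transport and oxysterol genes moved in both directions. STARD4 read 8.10 to 8.19 on the control siRNA arrays and 9.45 to 9.52 with TSA, a rise by 1.35 ± 0.07 (SE, limma adjusted p = 9.85e-07), and rose by 1.47 after APE1 siRNA. NPC1, the lysosomal membrane protein that passes cholesterol on, rose by 0.44 and 0.60. NPC2 was not called with all arrays (0.21 and 1.16), and without replicate 2 the difference after APE1 siRNA was 0.25. NR1H3, which encodes LXR alpha, read 7.38, 7.24 and 7.53 without and 6.79, 6.75 and 6.67 with TSA, and fell by 0.65 ± 0.09 log2 units (SE, limma adjusted p = 0.00045) after control siRNA and by 0.80 after APE1 siRNA. MYLIP rose by 0.97 and 0.86. Without replicate 2 the remaining log2 fold changes with TSA after APE1 siRNA, all called, were 1.58 for IDI1, 1.02 for SQLE, 0.81 for TM7SF2, 0.74 for NSDHL, 0.42 for HSD17B7, 0.46 for SC5D, 0.54 for DHCR7, 0.73 for SREBF1, 0.55 for NPC1, 1.39 for STARD4, -0.84 for NR1H3 and 0.82 for MYLIP. Those after control siRNA do not use that array in their means and did not change.

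**Figure D4:**
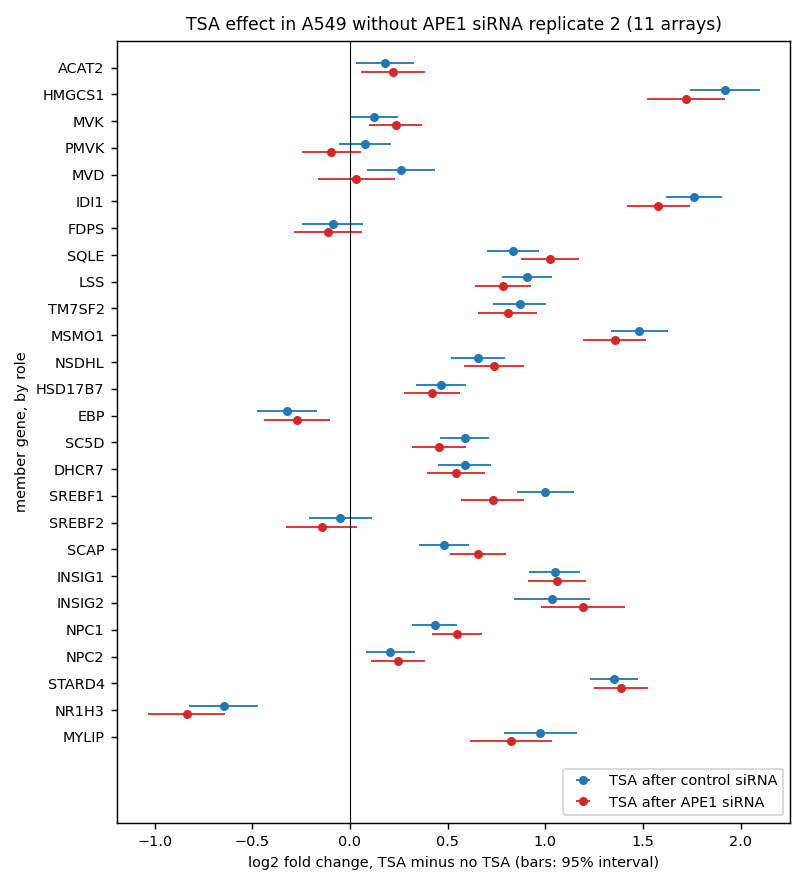
Log2 fold change with TSA (horizontal axis, with its 95% interval) of each of the 26 members (vertical axis) after control siRNA (blue) and after APE1 siRNA (red), from the 11 A549 arrays without APE1 siRNA replicate 2. HMGCS1 and IDI1 lie farthest to the right, at 1.72 to 1.92 and 1.58 to 1.76, while FDPS, PMVK and SREBF2 lie near 0 and EBP and NR1H3 to the left.

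The BEAS-2B comparisons asked what APE1 that cannot be acetylated, or that lacks its N-terminus, does in place of WT. In RR 12 of 26 members were called higher and 1 lower, where 14.1% of all genes were called higher and 11.9% lower, and the median member differed by 0.31 against -0.01 over all genes. In ND42 11 of 26 were called higher and 0 lower, where 10.3% of all genes were called higher and 7.50% lower, with a median of 0.23 against 0.00. These comparisons share the 3 WT arrays, so a WT array that reads low moves both. APEX1 itself spanned 10.09 to 11.02 over the WT arrays.

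INSIG1 read 7.95, 7.78 and 7.45 in WT, 8.80, 8.74 and 8.61 in RR and 8.83, 8.73 and 8.65 in ND42. Both mutants lay above WT on every array, with log2 fold changes of 0.99 ± 0.11 (SE, limma adjusted p = 0.000173) and 1.01 ± 0.11 (SE, limma adjusted p = 0.000196). STARD4 read 7.79, 7.48 and 7.62 in WT, 8.76, 8.69 and 8.69 in RR and 8.55, 8.55 and 8.63 in ND42. It rose by 1.08 ± 0.07 (SE, limma adjusted p = 1e-05) in RR and by 0.95 ± 0.07 (SE, limma adjusted p = 2.44e-05) in ND42. MYLIP read 8.05, 7.64 and 7.88 in WT, 8.76, 8.79 and 8.65 in RR and 8.61, 8.58 and 8.57 in ND42, and rose by 0.88 and 0.73.

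SREBF2 rose by 0.61 in RR and 0.42 in ND42, from 7.22, 7.33 and 7.14 in WT to 7.88, 7.91 and 7.73 and to 7.62, 7.64 and 7.66. It was read at 201247_at in this line, and its other probe sets were not called alike: 201248_s_at was called in ND42 (0.39) and not in RR (0.24), and 242748_at was not called, with -0.31 and -0.15. SREBF1 differed by -0.05 and 0.07, SCAP by 0.24 and 0.20 and INSIG2 by 0.21 and 0.07, none of them called. NPC2 rose by 0.65 and 0.60, from 10.45, 10.49 and 10.44 in WT to 11.12, 11.13 and 11.06 in RR and 11.14, 11.01 and 11.01 in ND42, with a gap between WT and both mutants wider than the range within any group. NPC1 differed by 0.31 and 0.17 and was not called.

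Of the enzymes, FDPS read 9.69, 9.82 and 9.62 in WT, 10.11, 10.22 and 10.12 in RR and 10.08, 10.08 and 10.13 in ND42, and rose by 0.44 and 0.39. HMGCS1 rose by 0.39 and 0.38 at 221750_at, while its dim 205822_s_at was not called and lay lower (-0.26 and -0.08). MSMO1 rose by 0.53 and 0.42, TM7SF2 by 0.46 and 0.42 and DHCR7 by 0.38 and 0.35. EBP, lower after APE1 siRNA in A549 cells, read 8.86, 8.97 and 8.84 in WT, 9.26, 9.38 and 9.32 in RR and 9.23, 9.21 and 9.23 in ND42, and rose by 0.43 and 0.33, with its probe set 202735_at called higher too (0.48 and 0.36). ACAT2, the thiolase that joins acetyl-CoA units, was called in RR (0.33), and SC5D was called lower there (-0.34), although WT replicate 2 (7.88) and RR replicate 1 (7.88) met. IDI1, SQLE, LSS, MVK, PMVK, MVD, NSDHL, HSD17B7 and NR1H3 were called in neither mutant at the probe sets used. In RR 2 of the 3 other probe sets of MVK, 1 of 2 of LSS and 2 of 3 of SQLE were not called, and the rest were. The highest of these lay at 0.69, 0.49 and 0.43, against -0.23, 0.31 and 0.23 at the sets used. For ND42 2 of the 3 of MVK were not called, and the highest lay at 0.39 against 0.05. IDI1, which rose by 1.76 with TSA in A549 cells at 208881_x_at, was read here at another probe set, 204615_x_at. It differed there by 0.10 in RR and 0.04 in ND42.

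**Figure D5:**
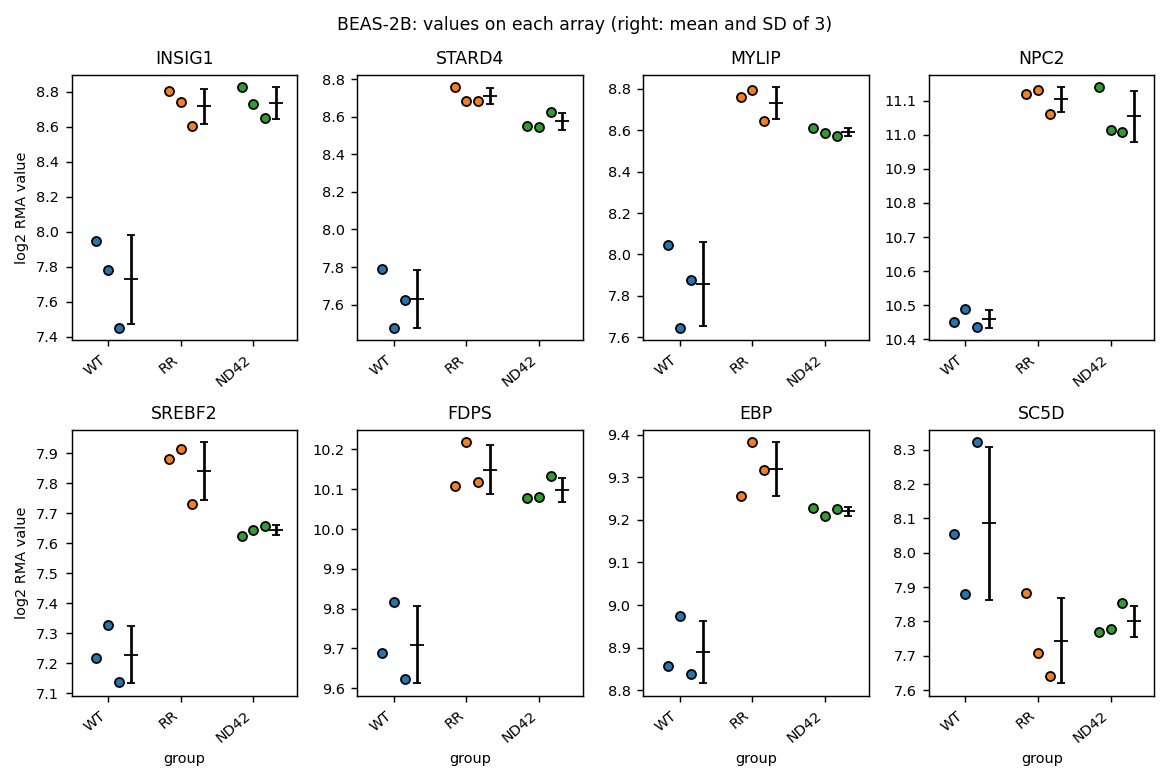
Log2 RMA values (vertical axis) of 8 members on each BEAS-2B array by group (horizontal axis), with the mean and SD of the 3 arrays to the right of each group. In 7 of the panels all RR and ND42 arrays lie above all WT arrays, and in SC5D the groups meet.

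Leaving out 1 array at a time, 10 of the 13 calls in RR and 8 of the 11 in ND42 held in all 9 fits. The calls that ended at least once were those of ACAT2, DHCR7 and SC5D in RR and of DHCR7, EBP and TM7SF2 in ND42. WT replicate 3 ended 5 of them: without it DHCR7 gave limma adjusted p = 0.0737 and TM7SF2 0.0522 in ND42, SC5D gave 0.0876 in RR, and DHCR7 in RR (0.29) and EBP in ND42 (0.31) passed the p threshold but not the minimum fold. DHCR7 in ND42 was also lost without ND42 replicate 1 (limma adjusted p = 0.0863), TM7SF2 without ND42 replicate 3 (0.0511), and SC5D in RR without WT replicate 1, RR replicate 2 or RR replicate 3 (0.0619 to 0.0835). ACAT2 in RR fell under the minimum fold without WT replicate 2, RR replicate 1 or RR replicate 2, down to 0.30, and EBP in ND42 without WT replicate 1 (0.31). Of the other probe sets of the called members 7 of 15 shared the call in RR and 7 of 14 in ND42, and 0 were called the other way.

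ND42 and RR were not told apart in these genes. None of the 26 members was called, with 0 of 19775 genes called in all, 2 of 26 members had an unadjusted p under 0.05 in limma, and the 95% intervals of the 26 differences all lay between -0.35 and 0.41. The members with the smallest p were MVK, higher in ND42 by 0.28 (limma adjusted p = 0.194), which read 8.61, 8.71 and 8.64 in RR and 8.86, 9.03 and 8.90 in ND42, and SREBF2, lower by 0.20 (limma adjusted p = 0.303). The 3 other probe sets of MVK lay between -0.30 and 0.10, and the 2 of SREBF2 between 0.14 and 0.16, none of them called.

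Levels in the cell lines can only be set side by side, since the lines were normalized apart. At the same probe set INSIG1 averaged 11.53 in A549 control siRNA cells and 7.73 in BEAS-2B WT cells, NPC1 12.15 and 9.51, NPC2 12.36 and 10.46, and PMVK 9.51 and 7.39. ACAT2 averaged 8.76 and 8.96 and MYLIP 7.94 and 7.86, within 0.2 of each other.

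A wider set of sterol genes, 48 measured in 6 further lists (isoprenoid branch and prenylation, SREBP activation and degradation, storage and export, sterol transfer, other lipoprotein receptors, and LXR partners), moved less evenly, and several counts lay near the share of all genes. After APE1 siRNA 2 of 48 were called higher and 1 lower (1.85% and 3.09% of all genes), and 5 and 2 without replicate 2 (4.86% and 4.35%). After APE1 siRNA with TSA the counts were 1 and 1 (1.91% and 3.37%), and 5 and 5 without replicate 2 (4.19% and 6.42%). With TSA after control siRNA 11 were higher and 3 lower (11.9% and 8.94%), and 16 and 8 without replicate 2 (16.4% and 14.4%). With TSA after APE1 siRNA they were 13 and 5 (15.3% and 9.77%), and 14 and 7 without replicate 2 (17.2% and 16.0%). In RR 16 were higher and 7 lower (14.1% and 11.9%), and in ND42 12 and 8 (10.3% and 7.50%). Leaving out the 1 array thus moved the counts in the first 3 of these comparisons by over 1.5 times.

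ABCG1, a sterol exporter that LXR induces, was called higher in all 6 comparisons, with and without replicate 2. With all arrays it rose by 1.35 and 0.66 with APE1 siRNA without and with TSA and by 2.20 and 1.50 with TSA after control and APE1 siRNA, and without replicate 2 the first was 1.53 and the last 1.33. It rose by 1.79 and 1.67 in RR and ND42. Without replicate 2 the effect of APE1 siRNA on ABCG1 was smaller with TSA than without it (interaction -0.87, limma adjusted p = 0.000301), a difference of -0.70 that was not called with all arrays (limma adjusted p = 0.296).

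Of the 10 genes of sterol transfer, 6 were called higher with TSA after control siRNA (7 without replicate 2) and 6 after APE1 siRNA, where 1 was also called lower with all arrays. The mutants gave 6 higher in RR and 4 in ND42, and APE1 siRNA gave 1 higher without TSA and 0 with it, or 2 and 1 without replicate 2, beside 1 lower with TSA. The shares of all genes given above for each comparison apply here too. GRAMD1C, a membrane protein that carries sterol from the cell surface to the endoplasmic reticulum, rose by 2.31 with TSA after control siRNA and by 0.94 and 0.99 in RR and ND42. LIMA1 rose by 0.47 after APE1 siRNA, or 0.50 without replicate 2, and by 1.74 with TSA after control siRNA, which is the TSA comparison meant for all genes below. OSBPL2, an oxysterol-binding protein, rose by 0.38 with TSA and by 0.57 and 0.36 in the mutants, and TMEM97, which binds NPC1, by 0.55, 0.72 and 0.55. In the list of storage and export SOAT1, which esterifies cholesterol, rose by 0.92 and the lipoprotein receptor SCARB1 by 0.92 with TSA. LRP8, a receptor of the same family as the main lipoprotein receptors, fell by 0.96 log2 units with TSA, by 0.46 in RR and by 0.44 in ND42. In the list of the isoprenoid branch PGGT1B, a subunit of a protein prenyltransferase, fell by 0.62 log2 units with TSA, by 0.60 in RR and by 0.63 in ND42.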

How the data were processed

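Gene expression was measured on 21 arrays. The deposited values are log2 intensities of 54675 probe sets, which the authors computed in affy (background correction by RMA, then quantile normalization), with the cell lines normalized apart as the values show. Tool versions: not given in the sources used here. Tables of the authors' own limma comparisons (log2 fold changes and p-values) were not used. Symbols came from the platform annotation: of 54613 probe sets tested 41091 had 1 symbol, 1801 several and 11721 none. Another 62 probe sets, for Affymetrix controls, did not enter the fits.

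Each line was fitted on its own in R 4.3.3 with limma 3.58.1 (lmFit and eBayes, 1 mean per group), with 2-sided p-values adjusted by Benjamini-Hochberg over all 54613 probe sets. The test was checked on simulated data. Calls required an adjusted p under 0.05 together with a 1.25-fold change or more, and the share of the 19775 genes called stands beside the members' counts. The members and lists were chosen with earlier results of these data known, so no test was run over the list. Every called member is named, with values by array for those with the smallest adjusted p in a role and for those whose call differed between comparisons of a line. From the 6 further lists, which hold 52 genes, some of the called genes are named. With 3 arrays against 3 an exact permutation test of a single gene cannot go below p = 0.1. The number of arrays limits the precision. The labels and the methods differ on the harvest time of A549 cells and on the vector of the BEAS-2B constructs. Alternatives were other normalizations, filters, thresholds, probe set rules, fits and each array left out.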

Additional observations from a re-analysis of the deposited data

How the results depend on the processing

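No member called in a comparison changed direction there in any of the alternatives run: of 1356 values of called members, 1240 kept their call and 116 lost it. Many of these alternatives leave the log2 fold change as it is, so they could not change a direction. They are the thresholds, the filter, the eBayes settings and the replicate block. Fits of only the groups compared and fits without an array of another group are of this kind too. Dropping the minimum fold also could not end a call. Members that were not called did change sign, FDPS for APE1 siRNA from -1.25 to 0.03, LSS from -0.89 to 0.16 and NPC2 from -0.79 to 0.13 without replicate 2. Leaving out 1 array at a time, the number of members called ranged from 3 to 4 for APE1 siRNA without TSA, 2 to 4 with TSA, 13 to 19 for TSA after control siRNA, 16 to 20 after APE1 siRNA, 11 to 14 for RR and 8 to 12 for ND42, and was 0 throughout for the interaction and for ND42 against RR. With TSA, the number called for APE1 siRNA was 1 after a further quantile normalization, 2 with the mean of each gene's probe sets and 2 at an adjusted p under 0.01, against 4. Without TSA it was 0 with only the groups compared in the fit and 2 with the mean of the probe sets, against 4. For ND42 against WT it was 7 with the mean of the probe sets, against 11, and for TSA after APE1 siRNA it was 11 (9 higher, 2 lower) after a further quantile normalization, against 18 (17 higher, 1 lower). The same normalization gave 9 higher and 2 lower in RR. That normalization gave 18 for TSA after APE1 siRNA when APE1 siRNA replicate 2 was left out first, an alternative chosen after seeing the data. The cause was not tested. Deviations of arrays with the same replicate number correlated at -0.08 to 0.26 in A549 and -0.03 to 0.20 in BEAS-2B cells (other numbers, -0.16 to 0.08 and -0.23 to 0.25). These ranges overlap, and in A549 that of the same numbers reaches higher, so they do not decide whether the numbers pair the arrays. With the replicate number as a block 4, 3, 16, 18, 13 and 11 members were called in the comparisons with calls, in the order of the leave-one-out ranges, and HMGCS1 for APE1 siRNA with TSA lost its call (limma adjusted p = 0.0757), the only one lost. The interaction needs all A549 groups, so it has no fit with fewer.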
